A study of Mus musculus with 4 samples.

Results

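The tissue edge was compared with the interior in 4 Visium sections of diseased mouse liver. Visium lays a tissue section on a hexagonal array of barcoded spots and counts the messenger RNA molecules caught over each spot by their unique molecular identifiers (UMIs). An edge spot was a spot over tissue with fewer than 6 touching spots over tissue, and an interior spot lay at least 4 steps from any edge spot. Spots with at least 500 UMIs and 250 detected genes were kept, which left 1566 edge spots and 5376 interior spots of 10627 kept spots in all. Because edge and interior differed in depth, each edge spot was paired with an interior spot of the same section with a UMI total at most 0.1 apart on the log10 scale, and 1442 pairs were found.

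The sections came from 2 models of hepatocellular carcinoma, with 1 section for each model and time. STAM16w and STAM20w, at 16 and 20 weeks, were from STAM, a metabolic model with fatty, inflamed liver and diabetes. DEN22w and DEN30w, at 22 and 30 weeks, were from DEN+CCL4, in which a DNA-damaging carcinogen is combined with a toxin that scars the liver. The labels gave neither strain nor sex, and did not say whether weeks count age or time since treatment. Untreated liver was not analysed here, so the comparison is of edge and interior within diseased liver. The labels do not say that the sections came from separate animals, and the p-values measure only the spread between these 4 sections.

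The outer surface of the liver is covered by Glisson's capsule, a thin sheet of collagen, elastic fibres and fibroblasts under a single layer of mesothelial cells. The same connective tissue follows the portal vessels inward, and larger vessels cut across leave openings in a section. Hepatocytes between portal tracts and central veins are zoned, with urea cycle and gluconeogenic enzymes near the portal side and drug-metabolising enzymes and glutamine synthetase near the central vein.

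STAM16w held 423 kept edge spots, STAM20w held 399, DEN22w held 340 and DEN30w held 404. Not every edge was the surface of the organ. An edge spot was placed on the outer outline where it touched an off-tissue position joined to the outside of the section, and otherwise at an inner gap. The outer outline held 357, 337, 268 and 245 of these spots in that order of sections, and inner gaps held 66, 62, 72 and 159. DEN30w had the most gap spots, at openings in the middle of the section. On the border of the array, where the capture area and not the tissue ends, lay 55 edge spots of STAM20w, 25 of DEN30w, 5 of DEN22w and 0 of STAM16w. Whether a gap was a vessel, a tear or tissue missed by the tissue mark was not tested.

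**Figure D1:**
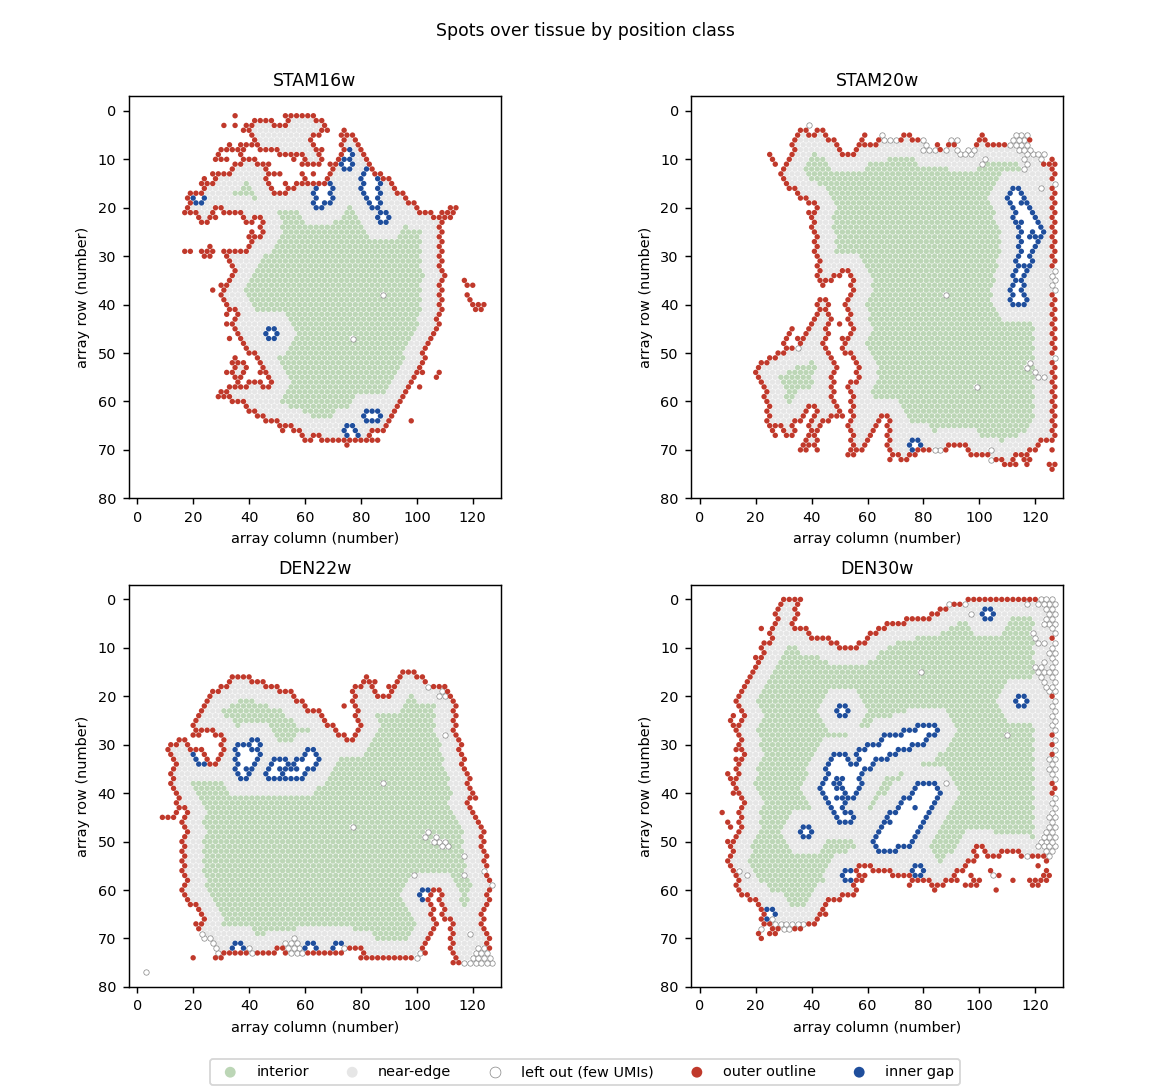
Each point is 1 spot over tissue, at its array column and row (numbers without a unit), in each of the 4 sections, coloured by position class. Red spots trace the outer outline and blue spots the inner gaps, of which DEN30w had 159 spots; open circles are spots left out for few UMIs.

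Edge spots were shallower than interior spots in 3 of 4 sections. The median was 6681 UMIs at the edge and 10062 in the interior of STAM16w, 6875 and 14884 in STAM20w, 6540 and 7694.5 in DEN22w, and 9306 and 8967.5 in DEN30w. The exact sign-flip permutation test over the 4 sections, two-sided, gave p = 0.25; with 4 sections its p cannot fall below 1 in 8. After pairing, the medians of the 2 classes differed by at most 11 UMIs in any section. In STAM20w the paired interior was 388 of 1527 spots, with a median of 7118 UMIs against 14884 for all interior spots. Pairing left out 96 edge spots of STAM16w with a median of 2204 UMIs, 11 of STAM20w, 17 of DEN30w with a median of 39327 UMIs, and 0 of DEN22w. The summed level of 16 genes of proteins that hepatocytes secrete, a check on the tissue label, lay between 89482 and 146574 counts per 1e+06 UMIs (CPM) at the edge and between 89578 and 141107 CPM in the interior.

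Genes of connective tissue made up many of the genes higher at the edge. With edgeR's quasi-likelihood test on UMIs summed per section and class, with the section as a block, 26 of 10870 genes were higher at the edge and 9 were lower at a Benjamini-Hochberg adjusted p under 0.05. The called share was 0.322% of genes in either direction, 0.239% higher and 0.0828% lower. Of the 26 higher genes, 15 were higher in all 4 sections, and of the 9 lower genes 8 were lower in all 4, against 7.12% and 10.9% of all genes with 1 direction in all 4 sections. The test itself favours genes whose sections agree, so these shares add no separate evidence. For Loxl1, Lum and Cd24a, among those 15, the UMIs of STAM16w were equal in both classes and its positive sign came from the class totals alone. These calls leaned on DEN30w. Without it 4 genes were higher and 1 was lower, and 2 of the original 35 calls remained, Slpi and Lepr. Without STAM20w the counts were 96 and 46. The model of DESeq2 called 1 gene, Slpi. In sums over spots, a larger share of a cell type and more RNA per cell cannot be told apart.

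Slpi, which encodes a secreted inhibitor of leukocyte proteases (ENSMUSG00000017002, chr2:164354070-164356507), was the call with the smallest adjusted p. Its level was 4.11 CPM at the edge and 3.34 CPM in the interior of STAM16w. The corresponding levels were 86.8 and 37.3 CPM in STAM20w, 7.06 and 3.24 CPM in DEN22w, and 84.6 and 43.1 CPM in DEN30w. The edge was higher in all 4 sections, although in STAM16w it rested on 12 against 10 UMIs, and the edge levels of STAM16w and DEN22w lay below the interior levels of STAM20w and DEN30w. The fitted log2 difference was 1.05 ± 0.11 (SE, n = 4 sections), a 2.08-fold higher level, with an adjusted p of 0.000147 in edgeR. Against interior spots at least 8 steps in, the difference was 1.06 with an edgeR adjusted p of 0.0777.

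Ltbp2, whose protein binds elastic microfibrils (ENSMUSG00000002020, chr12:84783212-84876558), showed the largest fitted difference among genes higher in all 4 sections. It stood at 2.74 CPM at the edge and 1.67 CPM in the interior of STAM16w, 5.36 and 0.795 CPM in STAM20w, 7.77 and 4.32 CPM in DEN22w, and 39.0 and 11.0 CPM in DEN30w. Most of its UMIs, 185 of the edge and 49 of the interior, came from DEN30w, and the other sections held 3 to 22 UMIs per class. The fitted log2 difference was 1.68 ± 0.24 (SE, n = 4 sections; edgeR adjusted p = 0.00321), a 3.20-fold higher level. Without DEN30w the difference was 1.32 and no longer passed (edgeR adjusted p = 0.462).

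Among 20 genes of collagens and matrix, 19 were tested, 5 were higher at the edge, 0 were lower and 18 had a positive difference. Their median log2 difference was 0.71, beside -0.0043 for all 10870 genes, of which 5303 had a positive and 5567 a negative difference. Col3a1, a fibrillar collagen of capsules and vessel walls (ENSMUSG00000026043, chr1:45311538-45349706), was at 54.1 CPM at the edge and 47.1 CPM in the interior of STAM16w, 125 and 49.5 CPM in STAM20w, 76.6 and 57.3 CPM in DEN22w, and 185 and 78.9 CPM in DEN30w. The gap between the classes was wide in STAM20w and DEN30w and narrow in STAM16w and DEN22w. Its log2 difference was 0.89 ± 0.13 (SE, n = 4 sections; edgeR adjusted p = 0.0043).

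Both chains of type I collagen were also higher at the edge. Col1a2 was at 24.7 CPM at the edge and 28.1 CPM in the interior of STAM16w, 85.7 and 27.3 CPM in STAM20w, 64.6 and 40.4 CPM in DEN22w, and 141 and 49.7 CPM in DEN30w. Col1a1 stood at 23.0 and 23.4 CPM in STAM16w, 73.9 and 29.4 CPM in STAM20w, 37.1 and 29.2 CPM in DEN22w, and 131 and 44.9 CPM in DEN30w. Col1a2 thus differed most in STAM20w and Col1a1 in DEN30w, and neither was higher at the edge of STAM16w. The fits gave 1.09 ± 0.17 (SE, edgeR adjusted p = 0.00681) for Col1a2 and 1.02 ± 0.17 (SE, edgeR adjusted p = 0.00775) for Col1a1. Eln, the gene of elastin, was higher in all 4 sections, by 1.21 ± 0.23 (SE, n = 4 sections). Sparc, a collagen-binding matrix protein, was higher in 3 of 4, by 0.51 ± 0.11, at an edgeR adjusted p of 0.0495. The remaining 14 matrix genes did not pass the threshold, among them Col4a1 and Col4a2 of basement membranes, at 0.26 ± 0.09 and 0.28 ± 0.09 (SE).

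Of 18 fibroblast genes of capsule and portal tract, 13 were tested, all 13 had a positive difference, and 3 passed: Mfap4, Lum and Dcn. The list's median log2 difference was 0.56. Mfap4, a microfibril-associated glycoprotein, had the largest fitted difference of all 26 higher genes, 1.92 ± 0.32 (SE, edgeR adjusted p = 0.0082). Its level was 2.06 CPM at the edge and 2.34 CPM in the interior of STAM16w, 5.36 and 1.59 CPM in STAM20w, 7.77 and 3.24 CPM in DEN22w, and 22.8 and 3.37 CPM in DEN30w. The edge of DEN30w was the highest value and STAM16w showed no higher level at the edge. Lum and Dcn, small leucine-rich proteoglycans that space collagen fibrils, were higher by 0.81 ± 0.12 and 0.45 ± 0.09 (SE, n = 4 sections). Dcn was higher in every section. Lum was too by CPM, but in STAM16w by the class totals alone, with 31 UMIs in both classes. Dpt and Mgp, also on the list, had log2 differences of 1.95 and 2.95 in DEN30w but -0.60 and -1.42 in STAM16w, and did not pass.

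Other called genes also belong to the matrix and its assembly. Loxl1, which cross-links elastin, was higher by 1.31 ± 0.21 (SE), with 16 UMIs in both classes of STAM16w. Tnxb, a tenascin that binds collagen, was higher in 4 of 4 sections, by 1.15 ± 0.20 (SE). Mmp2, a gelatinase, and Adamtsl2, a matrix glycoprotein, were higher in 3 of 4 sections, by 1.25 ± 0.23 and 0.98 ± 0.19, and in STAM16w their log2 differences were -0.05 and -0.19. Ccn2, a matricellular protein known as a target of YAP and TEAD, was higher by 0.89 ± 0.18. Its edge and interior UMIs were 145 and 60 in STAM20w and 120 and 59 in DEN30w. They were 15 and 16 in STAM16w and 17 and 16 in DEN22w. Ccn2 was the only called gene of 12 tested on the list of such targets, all 12 of which had a positive difference, with a median of 0.28. Markers of stellate cells (10 tested, median 0.20) and of smooth muscle and myofibroblasts (5 tested, median 0.79) had 0 called genes. In the second list Acta2, smooth muscle actin, ran from -1.03 in DEN22w to 1.74 in DEN30w.

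**Figure D2:**
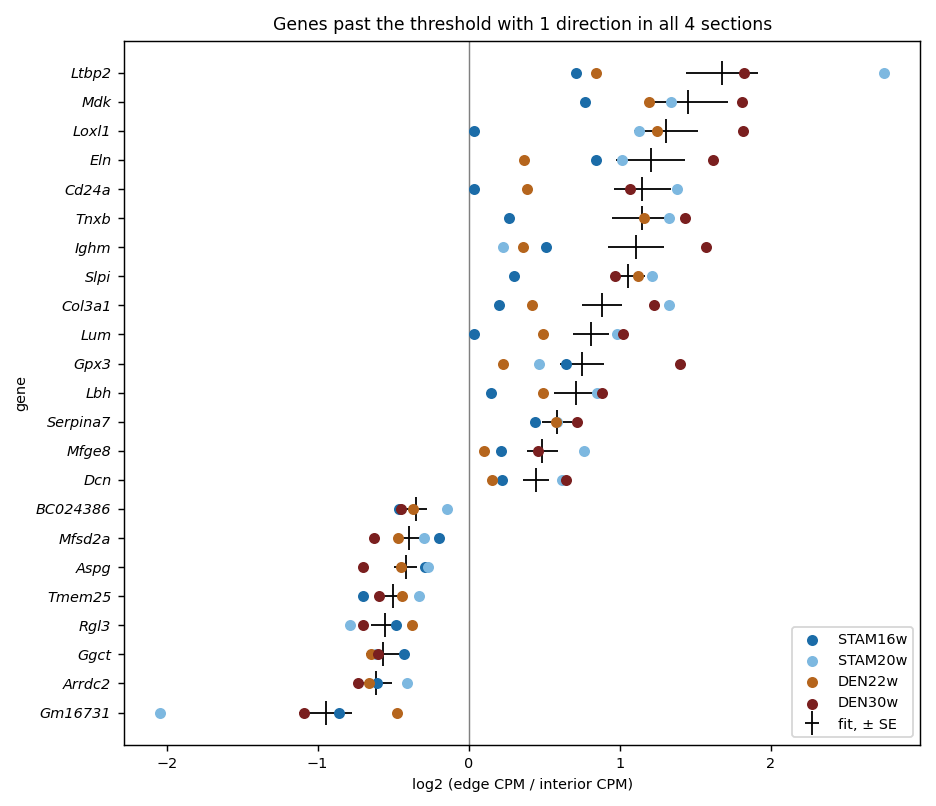
Log2 ratio of edge to interior CPM (x axis) for the genes called in either direction with 1 sign in all 4 sections (y axis). Coloured points are the 4 sections and black bars the edgeR estimate ± SE; STAM16w is nearest to 0 for Loxl1, Lum and Cd24a, and STAM20w is farthest out for Ltbp2.

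Mesothelial cells, which line the surface, left few counts. Of 18 mesothelial genes 5 passed the filter on low counts, and of these Slpi was called. The defining genes Msln and Upk3b had 9 and 8 UMIs in all paired edge spots against 2 and 0 in all paired interior spots, and Wt1 had 32 against 8. Muc16 and Bnc1 had 0 UMIs in both classes. These counts stood in sums of 2774816 to 4737573 UMIs per section and class, so levels of mesothelial genes other than those tested were not resolved at this depth. Summed over the list, the level was 1641 CPM at the edge and 1819.8 CPM in the interior of STAM16w and 3049 and 2974 CPM in DEN30w, sums in which Clu, a gene hepatocytes also express, held most counts. Of 9 skeletal muscle genes none passed the filter, and of 10 exocrine pancreas genes only Cela1 did, with 527 UMIs at the edge and 551 in the interior. Of 9 genes of fat cells 4 were tested and 0 passed. Adipoq and Plin1, which define these cells, had 1 UMI each at the edge and 0 in the interior, while Fabp4, a fatty acid carrier also found in endothelium and macrophages, had 4142 and 1851 UMIs, of which 3771 and 1519 were in STAM20w. The summed level of the fat cell list was 1069 CPM at the edge and 456 CPM in the interior of STAM20w, and between 34.4 and 95.3 CPM at the edge and 29.0 and 80.9 CPM in the interior of the other sections.

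Immunoglobulin genes were higher at the edge, chiefly in DEN30w. All 3 tested genes of B and plasma cells passed the test. Igkc, the constant region of kappa light chains, had 47 UMIs at the edge and 36 in the interior of STAM16w, and its level was 29.5 and 14.8 CPM in STAM20w, 8.12 and 12.3 CPM in DEN22w, and 849 and 264 CPM in DEN30w. DEN30w exceeded the other sections in both classes, and DEN22w went the other way. Igkc gave a log2 difference of 1.20 ± 0.20 (SE, edgeR adjusted p = 0.00789), Ighm of IgM heavy chains 1.11 ± 0.19 and Ighg2b of IgG heavy chains 1.46 ± 0.16. Ighg2b had 0 UMIs in both classes of STAM16w and DEN22w, so its value rests on STAM20w and DEN30w, and with interior spots at least 8 steps in, it was -0.084 ± 0.92 (SE, edgeR adjusted p = 0.989). Igkc was at 0.21 ± 0.61 with those interior spots (edgeR adjusted p = 0.948), at 0.46 without matching on UMIs (0.519) and at 0.49 without DEN30w (0.697), and Ighg2b was at 0.23 without matching (0.880); none of these passed. The counts were held by few spots: in DEN30w the 10 edge spots with the most Igkc held 50.2% of its edge UMIs, against 30.9% for the top 10 interior spots. Igha of IgA heavy chains, which fell to the filter on low counts, had 447 UMIs at the edge and 57 in the interior, whereas Ms4a1 and Cd79a of B cells had 4 and 25 at the edge and 7 and 35 in the interior. Reads of immunoglobulin genes that resemble each other can be divided unevenly in the counting.

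The remaining higher genes were of mixed function. Cd24a, a surface glycoprotein of immature epithelial cells, was higher at the edge by 1.15 ± 0.19 (SE). It had 221 edge and 86 interior UMIs in STAM20w and 47 and 21 in DEN30w, but 8 and 8 in STAM16w and 4 and 3 in DEN22w. Mdk, a heparin-binding growth factor, was higher by 1.46 ± 0.27 and Gpx3, a secreted glutathione peroxidase, by 0.75 ± 0.15. Serpina7, which encodes thyroxine-binding globulin, was at 32.2 CPM at the edge and 23.7 CPM in the interior of STAM16w, 276 and 184 CPM in STAM20w, 10.2 and 6.85 CPM in DEN22w, and 33.6 and 20.4 CPM in DEN30w. Its difference was of like size in all sections, between 0.44 and 0.71 on the log2 scale, with a fit of 0.58 ± 0.10 (SE, edgeR adjusted p = 0.0082). Mfge8, a bridge between dying cells and phagocytes, and Lbh, a transcription cofactor, were higher by 0.49 ± 0.10 and 0.71 ± 0.14. Lyve1, a hyaluronan receptor of sinusoidal and lymphatic endothelium, was the only called gene among 13 tested of liver endothelium, at 1.05 ± 0.22, whereas Stab2 and Clec4g of the same endothelium were at 0.02 ± 0.09 and -0.03 ± 0.09. At edge and interior Lyve1 had 33 and 20 UMIs in STAM16w, 136 and 43 in STAM20w, 17 and 19 in DEN22w, and 41 and 20 in DEN30w.

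Lepr, the leptin receptor, was carried by a single section. It was at 119 CPM at the edge and 44.0 CPM in the interior of STAM20w, while the values were 11.3 and 9.03 CPM in STAM16w, 1.41 and 1.44 CPM in DEN22w, and 2.96 and 2.47 CPM in DEN30w. STAM20w showed the widest gap between classes. Its log2 difference was 1.09 ± 0.18 (SE, edgeR adjusted p = 0.00775). Within the largest tissue piece of each section, a restriction chosen after seeing the data, Lepr was at 0.51 and Cd24a at 0.61, and neither passed (edgeR adjusted p = 0.223 and 0.269). In STAM20w this left out 105 of 399 kept edge spots but kept 1495 of 1527 interior spots. Edge and interior of STAM20w thus came partly from different pieces of tissue. In STAM16w, DEN22w and DEN30w it left out 28, 2 and 25 edge spots. Maoa, a monoamine oxidase, was the mirror of Lepr in STAM20w, with 46.1 CPM at the edge and 119 CPM in the interior, and the fit gave -0.94 ± 0.20 (edgeR adjusted p = 0.0478). Without STAM20w it was at -0.12, and within the largest pieces it was at -0.64 (edgeR adjusted p = 0.0926).

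Of the 9 genes lower at the edge, 7 differed by 0.35 to 0.61 on the log2 scale, and all but Maoa were lower in every section. Arrdc2, an alpha-arrestin (ENSMUSG00000002910, chr8:70835129-70839720), was at 13.4 CPM at the edge and 20.4 CPM in the interior of STAM16w, 12.6 and 16.7 CPM in STAM20w, 41.6 and 66.0 CPM in DEN22w, and 26.4 and 43.8 CPM in DEN30w. No section was higher at the edge, the log2 differences ran from -0.73 to -0.41, and the fit gave -0.61 ± 0.11 (SE, n = 4 sections; edgeR adjusted p = 0.0113). Tmem25, a transmembrane protein, had the smallest adjusted p of the lower genes, with -0.50 ± 0.09 (edgeR adjusted p = 0.00874). Rgl3, an exchange factor for Ral GTPases, was lower by -0.55 ± 0.10 and Aspg, an asparaginase, by -0.42 ± 0.08. Ggct, an enzyme of the glutathione cycle, was lower by -0.57 ± 0.11, and its 4 edge levels, 17.9 to 26.5 CPM, all lay below its 4 interior levels, 26.7 to 40.5 CPM. Such separation in this direction occurred for 0.414% of the genes tested. Mfsd2a, a carrier of lysophospholipids, was lower by -0.39 ± 0.08, and BC024386 and Gm16731, genes without a named function, by -0.35 ± 0.07 and -0.95 ± 0.18.

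No gene of the liver zonation lists passed the test at the edge. Of 17 periportal genes 16 had a negative difference and 10 were lower in all 4 sections, with a median log2 difference of -0.15, but 0 passed the threshold. Over all 10870 genes, 5567 had a negative difference and 10.9% were lower in all 4 sections. Sds, serine dehydratase, came nearest at -0.36 ± 0.09 (SE, edgeR adjusted p = 0.0923), and Pck1, the rate-limiting gluconeogenic enzyme, was at -0.30 ± 0.08. Pericentral genes had a median of -0.02 over 16 genes with 0 called, and the list's median was -0.53 in STAM20w against 0.08, 0.10 and 0.16 in the other sections. STAM20w alone was negative: Cyp1a2, a cytochrome P450 of the central zone, was at -1.37 there and between 0.10 and 0.26 in the other sections. Cholesterol synthesis genes divided in the same way, with a median of -0.62 in STAM20w and 0.08 to 0.31 elsewhere. Lists of hepatocyte secreted proteins (16 genes, median 0.02), Kupffer cells (9 genes, -0.02), hypoxia response (11 genes, -0.01), heat shock (10 genes, 0.06), proliferation (14 genes, 0.14) and lipid droplet proteins (10 genes, 0.02) had 0 called genes.

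Mitochondrially encoded genes took 2.38% of UMIs in paired edge spots and 1.89% in paired interior spots of STAM16w, 3.40% and 3.69% in STAM20w, 1.71% and 1.37% in DEN22w, and 2.93% and 1.18% in DEN30w. The edge was higher in 3 of the sections and lower in STAM20w (exact sign-flip permutation test, two-sided, p = 0.25). In the fit, 12 of 12 such genes had a positive difference, with a median log2 difference of 0.44, and 0 were called. Haemoglobin genes took 0.0819% of UMIs at the edge and 0.00894% in the interior of DEN30w, a 9.16-fold share. The ratio was 1.48 in STAM16w, 0.762 in STAM20w and 0.393 in DEN22w (exact sign-flip permutation test over the 4 sections, two-sided, p = 0.75).

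Levels by distance from the nearest edge spot, on the outline or at a gap, were taken over all kept spots and without a test. In DEN30w Ltbp2 was at 37.2 CPM in edge spots, 16.9 CPM in spots 1 step in, just outside the edge class, and 13.8, 14.1 and 13.7 CPM at 2, 3 and 4 to 7 steps. From 2 steps in the level was thus about flat. Of the 404 kept edge spots of DEN30w, however, 159 lay at inner gaps, and steps were counted from both kinds. The reach of the difference from the outline alone was not measured. In STAM20w Slpi was at 86.6 CPM in edge spots, 76.4, 73.8 and 55.8 CPM at 1, 2 and 3 steps, 35.9 CPM at 4 to 7 steps and 38.6 CPM at 8 or more, a slower fall. Col3a1 in the same section went from 124 CPM in edge spots through 98.6, 67.1 and 55.5 CPM to 48.0 CPM at 4 to 7 steps. Maoa in STAM20w went on rising inward, from 46.0 CPM at the edge to 79.0 CPM at 3 steps, 115 CPM at 4 to 7 steps and 224 CPM at 8 or more, so the choice of the interior boundary bears on its difference. Arrdc2 in DEN22w was at 41.6 CPM in edge spots, 58.3 CPM at 1 step and 65.6 to 70.1 CPM further in.

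**Figure D3:**
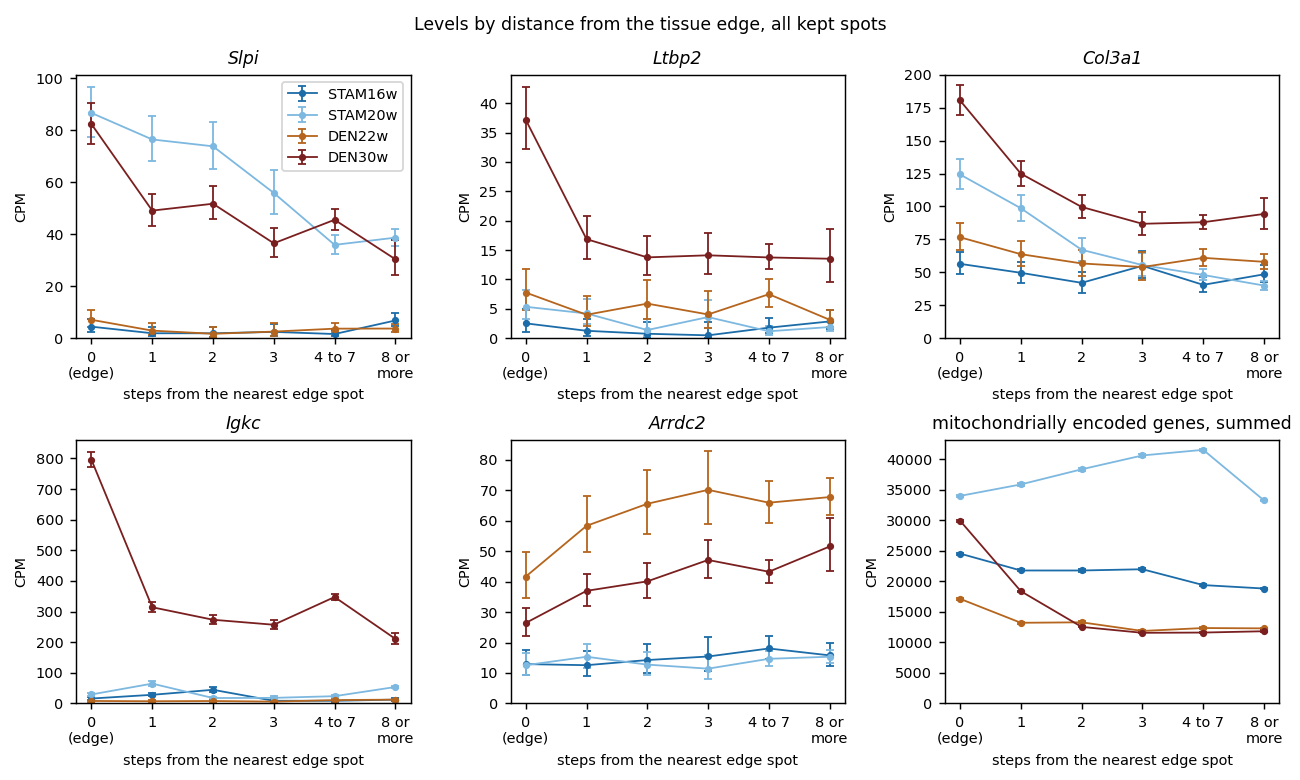
CPM of 5 genes and of the summed mitochondrially encoded genes (y axes, each from 0) by steps from the nearest edge spot (x axis), for all kept spots of each section; bars are exact Poisson 95% intervals and cover counting error only. Ltbp2 and Igkc of DEN30w drop after the edge spots, whereas Slpi of STAM20w falls over several steps.

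Spots 1 to 3 steps from the edge were tested against interior spots that had not served in the first comparison. Of 12354 genes 9 were higher and 4 were lower in edgeR's test, or 0.105% (0.0729% higher, 0.0324% lower). The higher genes were Lepr, Cd24a, Gm44427, Gsn, Afp, Lamb3, Vmn2r3, mt-Co1 and Spp1, and the lower ones Maoa, Nkd1, Slc7a11 and Ighg2b. Afp, the fetal albumin relative, was at 16.5 CPM near the edge and 13.6 CPM in the interior of STAM16w, 101 and 24.9 CPM in STAM20w, 5.14 and 5.02 CPM in DEN22w, and 5.06 and 6.80 CPM in DEN30w. STAM20w alone stood apart, and without it 1 gene was called, which was not among the 13. Gsn, an actin-severing protein, and mt-Co1 were higher in all 4 sections. Gsn was of like size in 3 of them, with log2 differences of 0.51, 0.56, 0.10 and 0.50 and a fit of 0.45 ± 0.08 (SE, edgeR adjusted p = 0.00941). Slpi and Ltbp2 did not pass near the edge, at 0.27 ± 0.12 and 0.09 ± 0.16 (edgeR adjusted p = 0.679 and 0.953). The near-edge pairs were unlike the edge pairs in depth. In STAM20w 645 of 907 near-edge spots were paired, at a median of 14922 UMIs, against 7115 for its paired edge spots. In DEN30w the paired classes stayed apart, at 11211.5 UMIs near the edge and 10009.5 in the interior. The part of depth, and of gap rims among these spots, was not tested.

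The outer outline and the inner gaps were then taken apart, a split made after the data were seen, with each kind matched to interior spots of its own section. The 2 comparisons share interior spots, so their values stand side by side and their likeness was not tested. On the outer outline 50 of 10030 genes were higher and 20 were lower in edgeR's test, or 0.698% (0.499% higher, 0.199% lower), and 32 of the 35 genes of the whole edge were among them. At inner gaps 32 of 6869 genes were higher and 9 were lower, or 0.597% (0.466% higher, 0.131% lower), of which 7 were among the 21 of the 35 genes that could be tested there; on the outline 34 of the 35 could be tested. Both kinds are parts of the whole edge, and the outline held 60.6 to 84.5% of its kept spots by section. Outline pairs numbered 240 to 331 a section and gap pairs 62 to 147. Overlap with the calls of the whole edge was thus partly fixed in advance and adds no separate evidence. Without DEN30w the outline had 1 called gene, Slpi, and the gaps had 6.

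On the outline 9 of 19 tested matrix genes and 4 of 11 tested fibroblast genes were higher. At gaps these counts were 2 of 10 and 0 of 6, with fewer spots and fewer genes tested. Slpi was at 171 CPM on the outline and 45.2 CPM in the matched interior of DEN30w, 93.6 and 37.0 CPM in STAM20w, 9.29 and 3.14 CPM in DEN22w, and 5.15 and 3.76 CPM in STAM16w. All 4 sections were higher on the outline. The fit gave 1.48 ± 0.14 (SE, edgeR adjusted p = 2.59e-08), a 2.79-fold level. At gaps Slpi stood at -0.013 ± 0.22 (SE, edgeR adjusted p = 0.994). Over all kept spots of DEN30w it was at 167 CPM on the outline (exact Poisson 95% interval 148 to 188), 43.4 CPM at gaps (36.9 to 50.8) and 42.7 CPM in the interior (39.4 to 46.2). Ltbp2 in the same section was at 92.1 CPM on the outline (78.1 to 108), 12.1 CPM at gaps (8.79 to 16.2) and 13.7 CPM in the interior (11.9 to 15.7), so the intervals of gap and interior spots overlapped for both genes.

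Genes called on the outline but not over the whole edge included Serpinh1, the collagen chaperone, at 0.82 ± 0.15, Bgn, a proteoglycan, at 0.57 ± 0.12, Postn, periostin, at 0.85 ± 0.20, and Vim, vimentin, at 0.68 ± 0.16 (SE). Dpt, a dermatopontin of capsular fibroblasts, was at 94.3 CPM on the outline and 16.1 CPM in the interior of DEN30w and had 14 and 23 UMIs in STAM16w, with a fit of 1.24 ± 0.28 (edgeR adjusted p = 0.0196). STAM16w was lower at its outline for this gene. Myl9, a myosin light chain of smooth muscle, was at 68.2 and 6.19 CPM in DEN30w and between 4.72 and 6.71 CPM on the outlines of the other sections, with a fit of 1.73 ± 0.34. Afp was called at 1.79 ± 0.30, from 136 CPM on the outline and 17.6 CPM in the interior of STAM20w, and without that section it was -0.23 ± 0.33. Lower genes included the glutathione transferases Gstp1, Gstp2 and Gstm2, at -0.40 ± 0.09, -0.89 ± 0.19 and -0.47 ± 0.10, each lower in all 4 sections.

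At inner gaps the leading genes were of other kinds. Of 12 mitochondrially encoded genes tested 10 were higher, with a median log2 difference of 0.73, against 0 of 12 and a median of 0.08 on the outline. mt-Nd5, a subunit of complex I, was at 306 CPM at gaps and 246 CPM in the interior of STAM16w, 603 and 422 CPM in STAM20w, 125 and 71.7 CPM in DEN22w, and 156 and 47.0 CPM in DEN30w. All 4 sections were higher at gaps, DEN30w by the most, and the fit gave 0.91 ± 0.14 (SE, edgeR adjusted p = 0.00028). Hba-a2, an alpha-globin of red blood cells, was at 443 CPM at gaps and 27.0 CPM in the interior of DEN30w, but at 47.7 and 31.1 CPM in STAM16w, 109 and 64.2 CPM in STAM20w, and 16.8 and 16.8 CPM in DEN22w. Its fit of 2.70 ± 0.33 (edgeR adjusted p = 2.4e-06) thus leans on DEN30w. Without that section Hba-a2 was at 0.55 and mt-Nd5 at 0.52, and neither passed (edgeR adjusted p = 0.821 and 0.0502).

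Of 15 tested pericentral genes, 4 were higher at gaps and 14 had a positive difference, with a median of 0.38. Over all 6869 genes tested at gaps, 0.466% were higher and 3278 had a positive difference, with a median of -0.012. On the outline 0 of 16 were called and 2 had a positive difference, beside 4897 of all 10030 genes tested there. Cyp2e1, a cytochrome P450 of the central zone, had log2 differences at gaps of -0.13 and 0.69 in the STAM sections and 0.83 and 0.46 in the DEN+CCL4 sections, with a fit of 0.50 ± 0.11 (SE, edgeR adjusted p = 0.0135). Oat, ornithine aminotransferase, was higher in all 4 sections, by 0.28, 0.73, 0.21 and 0.22, with a fit of 0.43 ± 0.11 (edgeR adjusted p = 0.034). Lect2 and Cyp2c29 were the others called, at 0.44 ± 0.10 and 0.53 ± 0.12. On the periportal side Sds and Hsd17b6 were lower at gaps, by -0.49 ± 0.10 and -0.44 ± 0.11, each in 4 of 4 sections. Cyp2e1 and Oat passed without DEN30w, but not without STAM20w (edgeR adjusted p = 0.170 and 0.299) or without DEN22w (0.172 and 0.0513). Arrdc2, Rgl3, Aspg and Mfsd2a were lower at gaps as well, in 4 of 4 sections each, by -0.93 ± 0.20, -0.70 ± 0.16, -0.51 ± 0.11 and -0.54 ± 0.13.

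**Figure D4:**
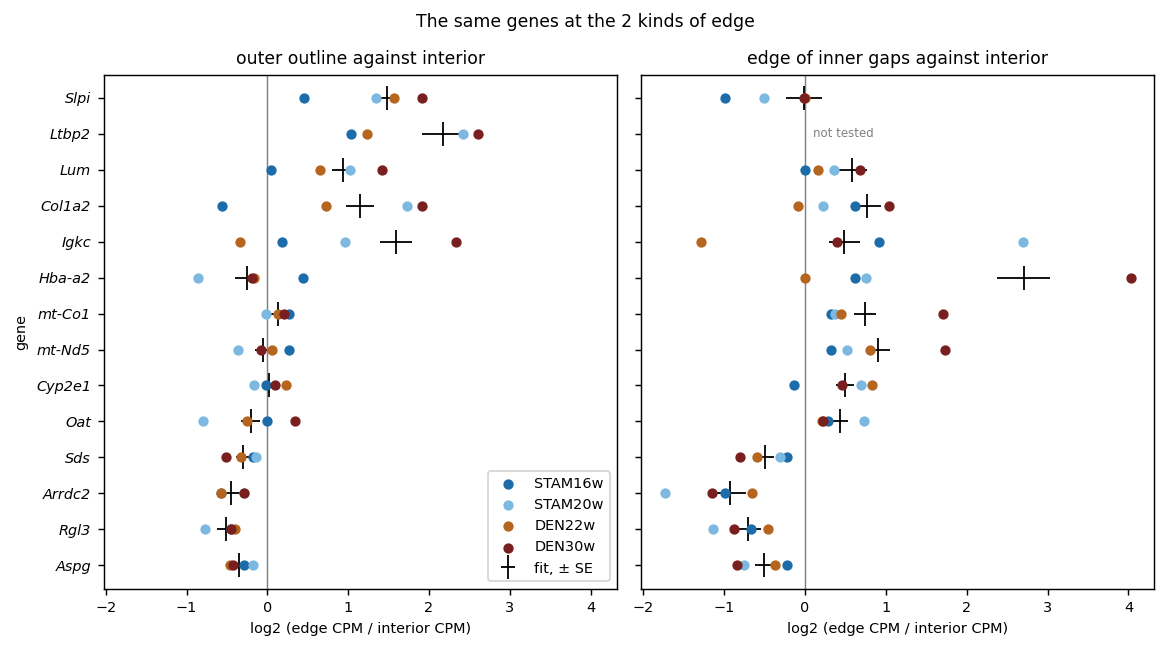
Log2 ratio of CPM to the matched interior (x axis) for 14 genes (y axis), on the outer outline (left) and at inner gaps (right); coloured points are sections and black bars the edgeR estimate ± SE. Slpi lies to the right of 0 on the outline and at -0.013 at gaps, and Hba-a2 of DEN30w lies far to the right at gaps alone; Ltbp2 had too few counts to be tested at gaps.

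Depth and RNA shares differed between outline and gaps, though not in the same direction in every section. In DEN30w the median was 22915 UMIs at gaps, 5203 on the outline and 8967.5 in the interior, and in DEN22w it was 12648, 5356.5 and 7694.5. STAM16w had 8544 UMIs at gaps, 6278 on the outline and 10062 in the interior. In STAM20w the order was turned, with 4598.5 UMIs at gaps and 8055 on the outline. The mitochondrial share of DEN30w was 3.70% at gaps, 1.43% on the outline and 1.16% in the interior, and its haemoglobin share was 0.104%, 0.0129% and 0.00866%. The mitochondrial share was also higher at gaps than on the outline in STAM20w (4.28% and 3.29%) and DEN22w (1.87% and 1.64%), but lower in STAM16w (2.29% and 2.49%). The haemoglobin share was 0.0191% at gaps and 0.0325% on the outline of STAM16w, 0.0497% and 0.0317% in STAM20w, and 0.00681% and 0.00702% in DEN22w. The part of depth and of these shares in the differences at gaps was not tested.

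**Figure D5:**
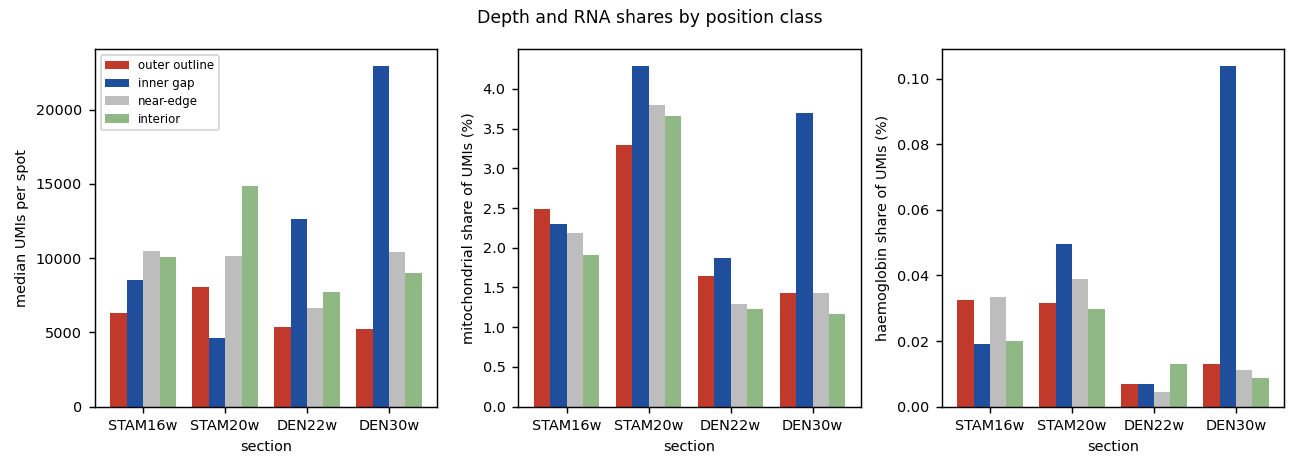
Median UMIs per spot, mitochondrial share and haemoglobin share of UMIs (y axes, from 0) for the 4 position classes (bar colours) in each section (x axis), with 1 value per class and section and so no error bars. The gap spots of DEN30w have the highest median, 22915 UMIs, and the highest haemoglobin share, 0.104%, while the highest mitochondrial share is that of the STAM20w gap spots, 4.28%.

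Outline and gap spots were also set directly against each other, paired within sections on UMIs, with 62 to 74 pairs a section. Of 6922 genes 3 were higher on the outline and 1 was lower, or 0.0578% (0.0433% higher, 0.0144% lower). Lyz2, lysozyme of macrophages and neutrophils, was at 128 CPM on the outline and 90.4 CPM at gaps of STAM16w, 319 and 190 CPM in STAM20w, 235 and 169 CPM in DEN22w, and 797 and 427 CPM in DEN30w. The outline was higher in all 4 sections, and the fitted log2 difference was 0.62 ± 0.12 (SE) at an edgeR adjusted p of 0.0186. Igkc and Ighm were the other higher genes, at 1.52 ± 0.23 and 1.41 ± 0.27, and Hbb-bt of beta-globin was the lower one at -3.02 ± 0.50, led by DEN30w with 229 CPM at gaps and 6.46 CPM on the outline. Slpi did not pass this direct test, at 0.97 ± 0.25 (SE, edgeR adjusted p = 0.199), nor did any matrix or mitochondrially encoded gene. Without DEN30w 0 genes were called, and 285 had an unadjusted p under 0.05 in edgeR. In DEN30w the pairs still differed in depth, with medians of 12564 UMIs on the outline and 15311 at gaps.

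The difference between edge and interior was compared between the models as an interaction, with 2 sections in each. In edgeR's test 0 of 10870 genes, or 0%, passed, with 573 at an unadjusted p under 0.05, and DESeq2 called 0, with 16 at an unadjusted p under 0.05. Gm42418, a gene without a named function, and Plat, tissue plasminogen activator, had the smallest adjusted p, 0.115 each in edgeR. For Plat the log2 difference was -1.96 and -1.25 in the STAM sections and 0.19 and 0.73 in the DEN+CCL4 sections. Cpe, carboxypeptidase E, had -0.96 and -1.10 in the STAM sections and 0.46 and 1.56 in the DEN+CCL4 sections (edgeR adjusted p = 0.247). Neither passed the test, and some of these signs rest on few UMIs: at edge and interior Plat had 2 and 8 in STAM16w and 14 and 12 in DEN22w, and Cpe had 3 and 6 in STAM16w.

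Mycn, the gene of the series title, was too rare to compare. A Mycn UMI was found in 1 of 423 edge spots and 5 of 929 interior spots of STAM16w and in 1 of 399 and 7 of 1527 of STAM20w. DEN22w had 0 of 340 and 9 of 1526 such spots, and DEN30w had 2 of 404 and 6 of 1394. The count of 0 in DEN22w allows a share of up to 0.882% at 3 counts, or 1.08% as the upper bound of the exact binomial 95% interval, and its interior share was 0.590% (exact binomial 95% interval 0.270 to 1.12%). Of its relatives, Myc was at 18.2 CPM at the edge and 14.8 CPM in the interior of STAM20w over the paired spots, and at 18.2 CPM in both classes over all kept spots. It did not pass the test, at 0.20 ± 0.21 (SE, edgeR adjusted p = 0.779). Mycl was lower at the edge in all 4 sections without passing, at -0.40 ± 0.21 (SE, edgeR adjusted p = 0.51).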

How the data were processed

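For each of 4 sections the authors deposited a matrix of UMI counts, unnormalized whole numbers for 32285 genes over the array's spots. Per the submitters' processing notes, Space Ranger 1.3.1, STAR and mm10 were used; their settings and the gene annotation are not given in the sources used here. The position tables supplied array row, array column and the tissue mark. Spot barcodes are array positions, and 1136 occurred in all 4 sections.

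Pairs minimised the summed distance in log10 UMIs within each section. Sums per section and class were tested with edgeR 4.0.16 (R 4.3.3; quasi-likelihood, TMM, filterByExpr) with the section blocked, and p-values were adjusted over all genes tested by Benjamini-Hochberg. DESeq2 1.42.0 was an alternative. The fold changes and SE are from the fit; values by section are plain CPM, UMIs per 1e+06 UMIs of the class. SE were derived from the estimate and its F statistic. Depth was 2774816 to 4737573 UMIs per paired sum. Intervals cover counting error only. The fit was checked on simulated counts with the same dispersion for every gene and the same difference in every section. That check does not cover differences that vary between sections. Gene positions are from RefSeq GRCm38.p6, the assembly of mm10.

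Spots, lists (41, with 500 entries) and tests were chosen with earlier results of these data known. Named were up to 15 called genes a direction with 1 sign in 4 sections and at least 50 UMIs, up to 4 called or 2 uncalled genes a list, 5 a direction for near-edge and model comparisons, and Mycn, Myc and Mycl; other names were chosen after their values were seen. Alternatives changed normalization, tool, filter, block, matching, edge and interior definition and sections used.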

Additional observations from a re-analysis of the deposited data

How the results depend on the processing

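Counts are given as higher and lower genes. For edge against interior (26 and 9), library totals alone gave 23 and 18, DESeq2 gave 1 and 0 (266 genes at an unadjusted p under 0.05), no filter on low counts 151 and 59, unmatched spots 22 and 5, the outer outline alone 50 and 20, interior spots at least 8 steps in 10 and 4, no mitochondrial or haemoglobin genes 42 and 22, and the largest tissue piece, chosen after seeing the data, 44 and 22. The fit with no replicate block, here the section, gave 0 and 0 in edgeR, with 63 at an unadjusted p under 0.05. Similar counts did not always mean the same genes. Of the 35 main calls, 16 remained called without matching, 11 with interior spots at least 8 steps in and 26 in the largest piece. With library totals alone 31 remained, on the outer outline 32, and without mitochondrial and haemoglobin genes 30. Leaving out 1 section gave 4 to 96 higher and 1 to 46 lower. Size factors of DESeq2 in edgeR, greedy matching, edge spots off the array border, and edge spots with at most 4 touching spots stayed within 1.5 times. In that order they kept 35, 32, 34 and 23 of the main calls. For the model interaction (0 and 0), no filter gave 3 and 35, unmatched spots 0 and 4, and leaving out 1 section 0 to 11 and 0 to 59. For near-edge spots (9 and 4), DESeq2 gave 0 and 0 (101 at an unadjusted p under 0.05), no filter 51 and 54, unmatched spots 5 and 8, greedy matching 3 and 3, and leaving out 1 section 1 to 27 and 0 to 17. For the outer outline (50 and 20), DESeq2 gave 2 and 0, and leaving out 1 section 1 to 118 and 0 to 83. For inner gaps (32 and 9), DESeq2 gave 0 and 0 (125 at an unadjusted p under 0.05), and leaving out 1 section 6 to 53 and 0 to 20. For outline against gaps (3 and 1), DESeq2 gave 0 and 0 (44 at an unadjusted p under 0.05), and leaving out 1 section 0 to 9 and 0 to 16. The sign changed for Ighg2b with interior spots at least 8 steps in (-0.084 ± 0.92) and for Slpi at gaps alone (-0.013 ± 0.22). Both values were smaller than their SE. Lect2 (0.44) and Oat (0.43), not called over the whole edge, changed sign at gaps alone. Leaving out 1 section, the sign changed for Afp (-0.23 to 2.13, lowest without STAM20w) and Plat (-1.32 to 0.38, highest without STAM20w) on the outline. It also changed for Lars2 (-0.12 to 1.13, lowest without DEN30w) at gaps. The cause of these shifts was not tested. Depth limits mesothelial genes and Mycn, and 62 to 159 gap spots a section limit the gap comparisons.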
